A study of Homo sapiens with 6 samples.

Results

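The thrombospondins THBS1, THBS2 and THBS3 and the secreted proteases ADAMTS1, ADAMTS4, ADAMTS5, ADAMTS9 and ADAMTS12 are described here in MDA-MB-231 cells, an established human triple-negative breast cancer line of mesenchymal character. These 8 genes, of 25330 gene symbols in the count table, were listed by name, and the list was chosen on measured differences between the same knockout and control libraries. The differences of the 8 genes are therefore descriptions and carry no p-value. RNA sequencing compared 3 libraries with the genotype RNASEH2A KO (column name RN1), in which the gene of the catalytic subunit of RNase H2 was targeted, with 3 libraries of the CTRV2 control. All 6 libraries come from the same untreated parental line, were grown in serum-supplemented medium, carry 1 batch label, and represent different passages of each group. What the code CTRV2 stands for, and whether the knockout is 1 clone or a pool of edited cells, was not given in the sources used here. A difference between clones and a difference between genotypes cannot be told apart. RNase H2 removes ribonucleotides from DNA and the RNA strand of RNA-DNA hybrids, and the study's title puts the enzyme in the setting of replication stress, DNA damage and immunity against tumours.

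Thrombospondins are large secreted glycoproteins that sit in the matrix around cells and bind receptors, proteases and growth factors. THBS1 and THBS2 form trimers, carry thrombospondin type 1 repeats, restrain blood vessel growth through CD36 and bind CD47, and THBS1 can also activate latent TGF-beta. THBS3 belongs to the pentameric branch of the family, which lacks type 1 repeats. ADAMTS proteins are zinc metalloproteases with type 1 repeats of their own. ADAMTS1, ADAMTS4, ADAMTS5 and ADAMTS9 cleave the large matrix proteoglycans aggrecan and versican, and ADAMTS1 also cleaves THBS1 and THBS2. ADAMTS12 cleaves the cartilage matrix protein COMP, itself a thrombospondin.

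The coding sequences show what the 5 proteases share. The bases below encode the zinc-binding site of each protease, read 5′ to 3′ on the coding strand of its GENCODE 29 transcript on GRCh38, with the codons of the 3 zinc-binding histidines in capitals. In each gene the site is interrupted by an intron, so the coordinates span more than the 36 coding bases. The site lies at 21:26841140-26841867 in ADAMTS1, 1:161195610-161196180 in ADAMTS4, 21:26943522-26954748 in ADAMTS5, 3:64651145-64654369 in ADAMTS9 and 5:33649679-33658200 in ADAMTS12, each on the minus strand.
ADAMTS1: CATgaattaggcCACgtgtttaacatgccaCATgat
ADAMTS4: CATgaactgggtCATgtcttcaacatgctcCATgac
ADAMTS5: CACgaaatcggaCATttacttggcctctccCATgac
ADAMTS9: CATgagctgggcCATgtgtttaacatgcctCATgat
ADAMTS12: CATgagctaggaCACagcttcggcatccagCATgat
ADAMTS1 shares 31 of the 36 bases with ADAMTS9, 27 with ADAMTS4, 24 with ADAMTS12 and 21 with ADAMTS5. The site was located by a search for the 3 histidines and the glutamate after the first at fixed spacing, so these residues are shared by construction. The encoded proteins differ in length, from 837 residues in ADAMTS4 to 1935 in ADAMTS9, with 967 in ADAMTS1, 930 in ADAMTS5 and 1594 in ADAMTS12. THBS1 and THBS2 encode 1170 and 1172 residues, and THBS3 encodes 956.

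The libraries held 31596286, 27928670 and 28073125 counts in the knockout group and 29635083, 28682798 and 25419877 in the control group. Replicate 1 stood apart from its mates in both groups: the root-mean-square difference in log2 CPM (CPM being counts scaled to a common library size) was 0.489 and 0.414 between knockout replicate 1 and knockout replicates 2 and 3, against 0.335 between replicates 2 and 3. In the control group it was 0.357 and 0.364 for replicate 1, against 0.309 between the others. Knockout replicate 1 was also nearer to control replicate 1, at 0.476, than to knockout replicate 2, at 0.489. For the 8 genes, results are therefore given with and without knockout replicate 1 where it moves them. For the partner genes, the numbers called without it are given in the closing section. RNASEH2A itself had 7, 8 and 16 counts in the knockout libraries and 10, 6 and 15 in the control libraries, too few to check the labels, so each direction below rests on the labels. The line's mesenchymal markers VIM, CD44, EGFR, CAV1 and AXL were all well counted, with summed levels of 5026 to 5272 CPM in knockouts and 5257 to 5621 CPM in controls, and 0 of the 5 passed the test. Of 6 luminal markers 4 were tested and 1, KRT18, was lower, with ESR1 at 0 throughout. Summed levels, mostly KRT8 and KRT18, were 1059 to 1124 CPM in knockouts and 1166 to 1201 CPM in controls. The list did not move as a whole. KRT8 (log2 fold change -0.08) and CDH1 (-0.93) did not pass, and neither did EPCAM, which averaged 19.3 CPM in knockouts and 15.1 CPM in controls (0.35). PGR, below the count filter, had 10, 12 and 8 counts in knockouts and 0, 2 and 0 in controls. Fibroblast markers summed to 19.4 to 37.2 CPM in knockouts and 22.3 to 27.1 CPM in controls, with PDGFRA at 0. Endothelial markers summed to 2.80 to 5.13 CPM in knockouts and 3.44 to 4.21 CPM in controls, and leukocyte markers to 2.59 to 4.17 CPM in knockouts and 4.25 to 4.98 CPM in controls, with PTPRC at 0 in knockouts. Only 3 fibroblast, 2 endothelial and 1 leukocyte markers had enough counts to be tested, and 0 of them passed. For all of the marker lists, their part in the results was not tested.

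Of the 8 genes, 6 passed the filter on low counts, which retains genes with enough counts in at least one group, and ADAMTS4 and ADAMTS5 did not. Among all 14199 genes tested with edgeR, 12.1% were called at an adjusted p under 0.05, 6.22% as lower and 5.88% as higher in knockouts. THBS1, THBS2 and ADAMTS1 were called lower, 0 of the 6 were called higher and 3 were not called. In 4 of the 6, every knockout library lay under every control library, which was so in 17.4% of all genes tested. Nothing is read from these counts, since the same contrast chose the genes. Calls of these genes that are kept or lost in alternatives come from the same libraries and are descriptions too. The median log2 fold change was -0.47 over the 6 genes and 0.00 over all tested genes.

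**Figure D1:**
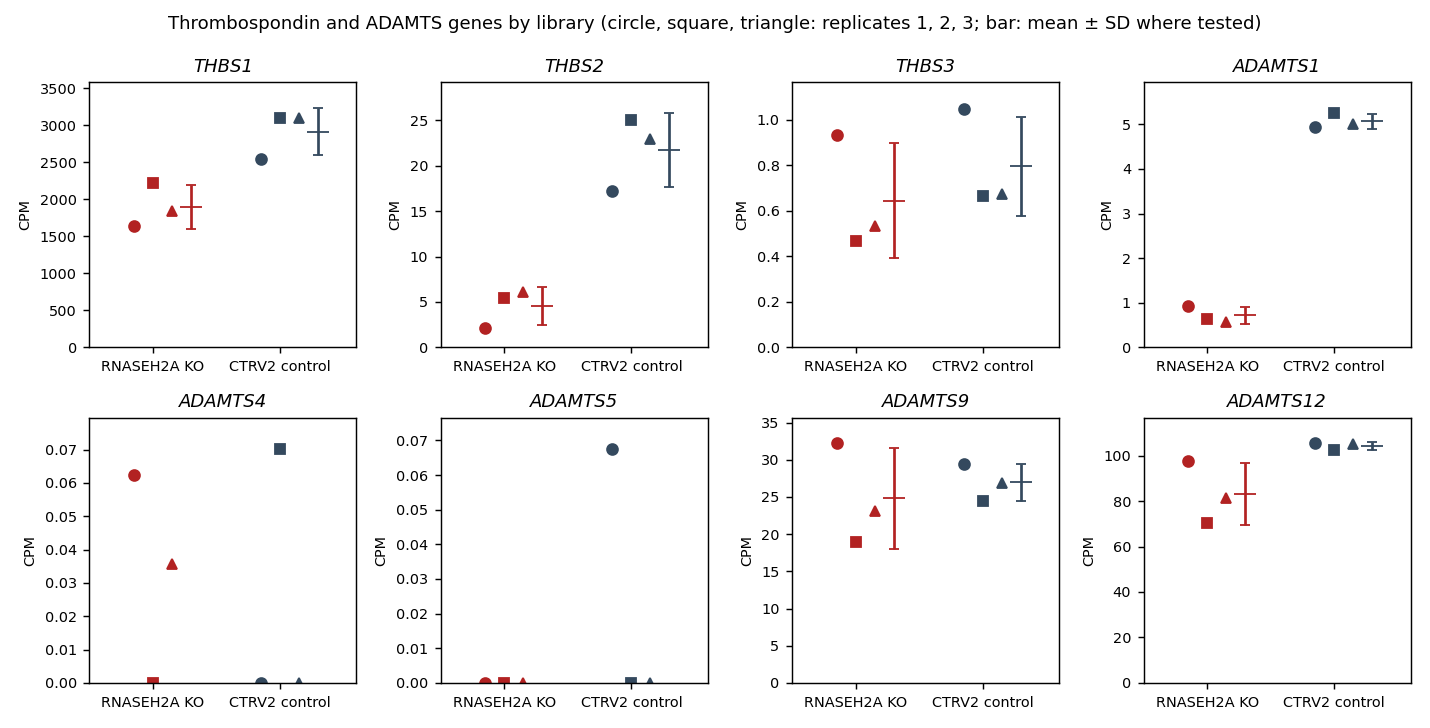
Level of each of the 8 genes in CPM (vertical axis from 0, own scale per gene) in the RNASEH2A KO and CTRV2 control libraries, with circles, squares and triangles for replicates 1, 2 and 3. Bars give the mean ± SD of 3 libraries for the 6 genes that passed the count filter. Knockout libraries lie under all controls in THBS1, THBS2, ADAMTS1 and ADAMTS12, and the groups overlap in THBS3 and ADAMTS9.

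THBS1, the trimeric thrombospondin that binds CD47 and activates latent TGF-beta, was among the most abundant transcripts of these cells, 10th of 25330 symbols by mean CPM. Its gene lies at 15:39581079-39599466 on the plus strand. It had 52530, 61943 and 51663 counts in knockout libraries, against 75437, 88524 and 77960 in control libraries. The highest knockout library stayed under the lowest control library. On the CPM scale it averaged 1901 ± 299.5 in knockouts and 2915 ± 319 in controls (SD, n = 3 each), a log2 fold change of -0.62 ± 0.11 (SE). THBS1 alone took 0.166% to 0.222% of all counts in knockout libraries and 0.255% to 0.309% in control libraries. In a culture, fewer cells that express a gene and less RNA per cell cannot be told apart.

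The 2 library sets had a common shape for THBS1: replicate 1 was the lowest of its group in both. Relative to the mean of its mates it was at -0.31 (log2 CPM) in knockouts and -0.28 in controls. Within groups THBS1 varied with a pooled SD of 0.196 on the log2 scale, while the 22 genes of like level had a median of 0.107. The call was lost without knockout replicate 3 and without control replicate 3, with the fold change between -0.74 and -0.52 over all fits that left out 1 library. It was also lost with limma on the deposited log2 CPM.

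Within intron sequence of THBS1, on the same strand, lies the annotated non-coding transcript THBS1-IT1 (15:39586561-39587293). It had 131, 162 and 130 counts in knockout libraries, against 301, 468 and 327 in control libraries. It was lower in knockouts in every library, at 4.85 ± 0.890 CPM against 13.2 ± 3.13 CPM in controls (log2 fold change -1.45 ± 0.20 SE, edgeR adjusted p = 0.00242). Reads from unspliced THBS1 RNA would fall on the same bases, and these sources cannot be told apart here. The p-value may therefore rest on THBS1, a gene chosen by this contrast, and nothing is read from it. On the opposite strand FSIP1 shares 4.89% of the exonic bases of THBS1, and its log2 fold change was -1.06 ± 0.45 SE (edgeR adjusted p = 0.158) at 6 to 12 counts in knockouts and 12 to 27 in controls. The strand setting of the counting was not given in the sources used here, which makes reads of overlapping genes on opposite strands uncertain.

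THBS2, the close trimeric relative of THBS1, lies at 6:169215780-169254044 on the minus strand. It had 69, 151 and 170 counts in knockout libraries, against 509, 714 and 579 in control libraries. The groups were wide apart, with the highest knockout count under the lowest control count by more than the whole spread of the knockouts. Levels were 4.55 ± 2.10 CPM in knockouts and 21.7 ± 4.08 CPM in controls (SD, n = 3 each), a log2 fold change of -2.27 ± 0.31 (SE). Knockout replicate 1 was again the lowest of its group, at -1.39 (log2 CPM) relative to the mean of its mates, and control replicate 1 was the lowest of its own, at -0.48. The pooled SD was 0.604, against a median of 0.161 over 1337 genes of like level. Without knockout replicate 1 the log2 fold change was -1.92, and THBS2 was called lower under all alternatives run.

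THBS3, the pentameric member at 1:155195588-155209051 on the minus strand, had 30, 13 and 15 counts in knockout libraries, against 31, 19 and 17 in control libraries. The groups overlapped, and replicate 1 was the highest of its group in both. Levels were 0.646 ± 0.252 CPM in knockouts and 0.796 ± 0.217 CPM in controls (SD, n = 3 each), with a log2 fold change of -0.29 ± 0.38 (SE). It ran from -0.67 without knockout replicate 1 to -0.04 over the fits that left out 1 library. An antisense transcript on the opposite strand shares 22.2% of the exonic bases of THBS3, but had only 4, 1 and 0 counts in knockouts and 5, 0 and 1 in controls. MTX1, also on the opposite strand, shares 3.16% and had 571, 529 and 563 counts in knockouts and 598, 551 and 529 in controls. With the strand setting not given, the few THBS3 reads are uncertain. The other two thrombospondins were near or at 0: THBS4 had 2, 3 and 0 counts in knockouts and 2, 3 and 0 in controls, and COMP, the substrate of ADAMTS12, had 0 in all 6 libraries. THBS1 thus made up 99.6% to 99.8% of the CPM of THBS1, THBS2 and THBS3 in knockouts and 99.2% to 99.3% in controls.

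The 250 bases before the starts of THBS1 and THBS2, the 2 thrombospondins whose libraries did not overlap, are shown because they differ in make-up. They come from RefSeq on GRCh38.p14, THBS1 from 15:39580829-39581078 (plus strand) and THBS2 from 6:169253847-169254096 (minus strand), both 5′ to 3′ in the direction of transcription. Promoters were found for 4 of the 8 genes. Starts here are those of RefSeq. In GENCODE 29 the THBS2 gene begins at 169254044 on the minus strand, so most of its window lies inside the gene as placed above. The THBS1 window ends just before its GENCODE start. Capitals mark matches to the TATA box TATAAA, to the CCAAT box (CCAAT) and to the GC box (GGGCGG), read on either strand, so a match on the reverse strand appears as the reverse complement.
THBS1: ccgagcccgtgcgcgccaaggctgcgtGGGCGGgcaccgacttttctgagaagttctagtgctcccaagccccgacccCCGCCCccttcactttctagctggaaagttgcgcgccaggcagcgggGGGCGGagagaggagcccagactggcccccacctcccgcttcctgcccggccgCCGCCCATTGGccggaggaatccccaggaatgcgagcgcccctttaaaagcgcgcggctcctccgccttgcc
THBS2: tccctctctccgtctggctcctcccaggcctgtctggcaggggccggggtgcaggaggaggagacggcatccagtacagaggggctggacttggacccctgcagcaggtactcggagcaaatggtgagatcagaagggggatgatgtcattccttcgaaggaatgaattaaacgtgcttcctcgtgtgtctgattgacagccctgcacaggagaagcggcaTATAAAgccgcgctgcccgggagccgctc
The THBS1 window is 69.6% G and C and holds 4 matches to GGGCGG, of which the one nearest the start, 72 to 67 bases before it on the reverse strand, adjoins a reverse match to CCAAT at 66 to 62 bases. The THBS2 window is 60.0% G and C and holds a single match, TATAAA at 29 to 24 bases before the start. Among 34788 promoter windows of the same length GGGCGG occurs in 42.6%, CCAAT in 32.0% and TATAAA in 10.8%, and the median G and C content is 58.0%. TGAGTCA (in 4.21% of windows) and CACGTG (in 6.31%) were also searched on both strands and had no match in either window. A match is a stretch of letters and shows no binding.

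ADAMTS1, the proteoglycan-cleaving protease that also cuts THBS1 and THBS2, had the largest fold change of the 6 tested genes. It lies at 21:26835747-26845409 on the minus strand. It had 30, 18 and 16 counts in knockout libraries, against 146, 150 and 126 in control libraries. The control libraries lay close together and none of the knockout libraries came near them. Levels were 0.717 ± 0.192 CPM in knockouts and 5.06 ± 0.176 CPM in controls (SD, n = 3 each), a log2 fold change of -2.80 ± 0.23 (SE). Its pooled SD of 0.241 was below the median of 0.305 of 912 genes of like level, with an SD of 0.338 in knockouts and 0.0490 in controls (log2 CPM). Knockout replicate 1 was the highest of its group, at 0.57 (log2 CPM) above the mean of its mates, and without it the log2 fold change was -3.05. ADAMTS1 was called lower under all alternatives run.

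ADAMTS5, an aggrecan-cleaving protease, lies 72.5 kb from ADAMTS1 on the same strand (21:26917912-26966513). It had 0 counts in all knockout libraries and 2, 0 and 0 in control libraries. At this depth 0 counts still leaves room for 3 counts, which is 0.0934 to 0.108 CPM per knockout library, and a level of ADAMTS5 under that was not detectable. ADAMTS4, its fellow aggrecanase at 1:161184308-161199056 (minus strand), had 2, 0 and 1 counts in knockouts and 0, 2 and 0 in controls. Neither gene allows a comparison. Their best known substrates also fell below the filter: ACAN had 0, 2 and 0 counts in knockouts and 2, 0 and 0 in controls, and VCAN had 5, 2 and 10 in knockouts and 10, 12 and 6 in controls.

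ADAMTS9, the longest of the proteases and a relative of ADAMTS1 in its substrates, lies at 3:64515654-64688000 on the minus strand. It had 1037, 528 and 648 counts in knockout libraries, against 874, 699 and 677 in control libraries. Knockout replicate 1 lay above all controls and the other two knockouts below them all. Levels were 24.8 ± 6.82 CPM in knockouts and 27.0 ± 2.49 CPM in controls (SD, n = 3 each), a log2 fold change of -0.12 ± 0.17 (SE). Without knockout replicate 1 it was -0.36 and ADAMTS9 was called lower, and without knockout replicate 2 it was 0.05 with no call. This gene's difference thus depends on which knockout library is left out.

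ADAMTS12, the protease that cleaves COMP, lies at 5:33523535-33892192 on the minus strand. It had 3131, 1958 and 2284 counts in knockout libraries, against 3131, 2919 and 2651 in control libraries. Replicate 1 had the same count in both groups, and once scaled to library size it lay just under the controls, so the groups did not overlap. Levels were 83.1 ± 13.6 CPM in knockouts and 104 ± 1.78 CPM in controls (SD, n = 3 each), a log2 fold change of -0.33 ± 0.11 (SE). The controls were tight while the knockouts spread, with replicate 1 higher than the mean of its mates by 0.36 on the log2 scale. ADAMTS12 was not called with all libraries, and was called lower without knockout replicate 1 (log2 fold change -0.46), with DESeq2 and with no filter on low counts.

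**Figure D2:**
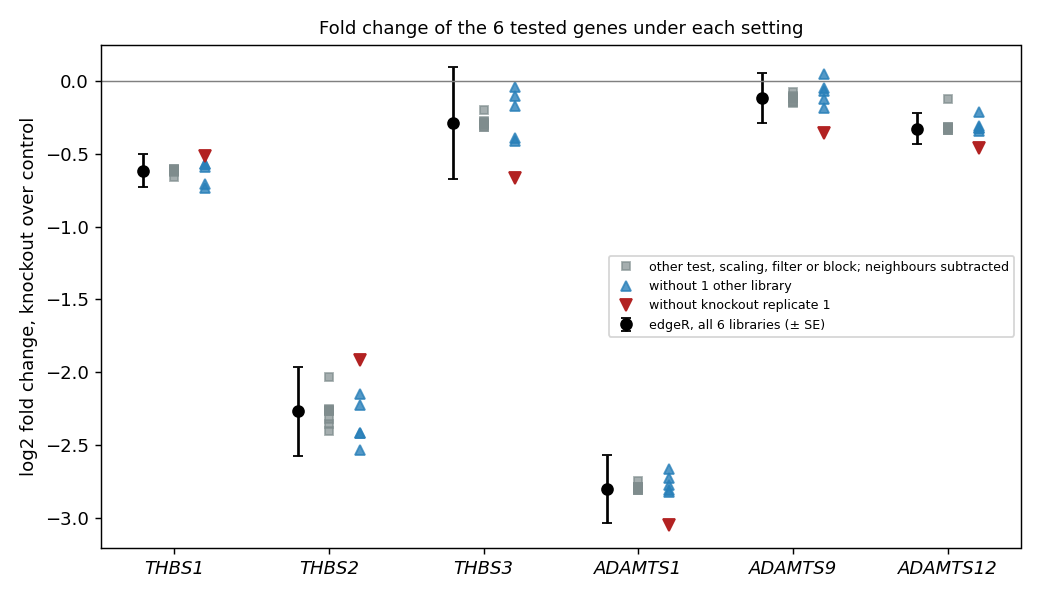
Log2 fold change (knockout over control, vertical axis) of the 6 tested genes with all 6 libraries (black, ± SE), under other tests, scalings, filters, the replicate block or with the neighbour median subtracted (grey squares), and with 1 library left out (triangles, red for knockout replicate 1). THBS2 and ADAMTS1 stay at -1.92 or lower throughout, THBS1 stays between -0.74 and -0.52, and ADAMTS9 reaches both sides of 0.

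Levels of different genes were compared per kb of exonic length. THBS1 stood at 208 ± 32.7 CPM per kb in knockouts and 318 ± 34.9 in controls, above the whole ADAMTS family in either group. Next among the 8 genes was ADAMTS12, at 8.50 ± 1.40 CPM per kb in knockouts and 10.7 ± 0.182 in controls. In controls THBS2 followed at 3.39 ± 0.636 CPM per kb and ADAMTS9 at 2.52 ± 0.233, and their libraries overlapped. In knockouts ADAMTS9, at 2.32 ± 0.638 CPM per kb, was above THBS2, at 0.709 ± 0.327, without overlap. ADAMTS1 stood at 0.102 ± 0.0272 CPM per kb in knockouts, where it overlapped THBS3 at 0.140 ± 0.0546. In controls ADAMTS1, at 0.717 ± 0.0249 CPM per kb, was clear of THBS3, at 0.172 ± 0.0469.

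Most ADAMTS transcript came from a gene outside the 8. ADAMTS15, another proteoglycan-cleaving member, stood at 46.2 ± 0.240 CPM per kb in knockouts and 48.8 ± 0.495 in controls, and gave 75.9% ± 3.15 of the summed ADAMTS level per kb in knockouts and 72.2% ± 1.01 in controls (SD, n = 3 each). ADAMTS12 gave 13.9% ± 1.73 in knockouts and 15.8% ± 0.243 in controls. ADAMTS1 gave 0.166% ± 0.0388 in knockouts and 1.06% ± 0.0493 in controls, and was the 9th of 17 family members by level in knockouts and the 6th in controls. The sum itself was 61.0 ± 2.41 CPM per kb in knockouts and 67.7 ± 1.10 in controls. A gene with a large fold change thus accounted for little of the family's transcript.

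**Figure D3:**
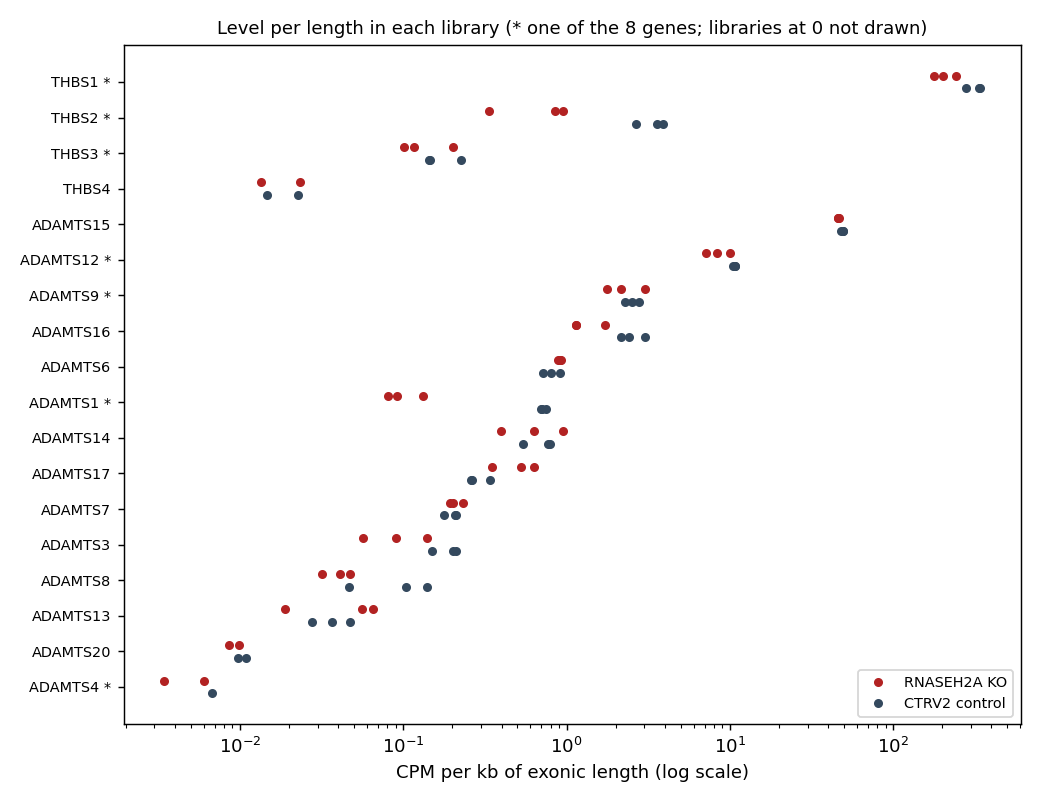
Level per kb of exonic length in CPM (horizontal log axis) of each thrombospondin and ADAMTS gene with counts in both groups, with RNASEH2A KO libraries in red above CTRV2 control libraries in dark blue and the 8 genes starred. THBS1 and ADAMTS15 lie far to the right, and ADAMTS1 shows the widest gap between the groups, at 0.102 CPM per kb in knockouts and 0.717 in controls.

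The partner genes of these proteins were grouped in 8 lists of 92 genes that hold none of the 8. The lists were written with earlier results of these data known, so nothing is read from the counts of genes called. Over the lists 58 genes were tested, 5 were higher, 8 were lower and 45 did not pass, with a median log2 fold change of -0.05. Among all tested genes 5.88% were called higher and 6.22% lower. Of the other ADAMTS genes, 7 were tested, 0 rose, 1 fell and 6 did not pass (median -0.07). The one that fell was ADAMTS16, a protease with 322, 187 and 189 counts in knockout libraries, against 522, 360 and 356 in control libraries. Every knockout library lay under every control library, at 7.83 ± 1.90 CPM in knockouts and 14.8 ± 2.56 CPM in controls (log2 fold change -0.91 ± 0.19 SE, edgeR adjusted p = 0.0135). Its call was lost without knockout replicate 3, control replicate 1 or control replicate 3, and with limma on the deposited log2 CPM. ADAMTS15, the most abundant, had 8385, 7292 and 7399 counts in knockouts and 8255, 7948 and 6901 in controls. It was at 262 ± 1.36 CPM in knockouts and 277 ± 2.81 CPM in controls and did not pass (log2 fold change -0.08 ± 0.05 SE, edgeR adjusted p = 0.377). ADAMTS2, a procollagen N-proteinase, fell below the filter with 0 counts in all knockouts and 19, 12 and 8 in controls, and was at least 13.7-fold lower in knockouts when these are set at 3 counts over the group.

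ADAMTS-like proteins have the type 1 repeats without the protease domain. Of 7 such genes, papilin among them, 6 were tested and 0 passed (median 0.01), with 1 at an unadjusted edgeR p under 0.05 in each direction. ADAMTSL4 was at 13.7 ± 3.52 CPM in knockouts and 9.31 ± 1.35 CPM in controls (log2 fold change 0.56 ± 0.19 SE, edgeR adjusted p = 0.0898). ADAMTSL2 was at 2.09 ± 0.801 CPM in knockouts and 3.33 ± 0.551 CPM in controls (-0.67 ± 0.29 SE, edgeR adjusted p = 0.168). With limma-voom 0 of the 6 passed, while ADAMTSL4 passed with DESeq2 (adjusted p = 0.0392), with no filter on low counts (edgeR adjusted p = 0.0115) and without knockout replicate 2 (edgeR adjusted p = 0.0171). It also passed in a further fit, named in the closing section. Without knockout replicate 1 ADAMTSL2 passed (log2 fold change -0.99, edgeR adjusted p = 0.0209).

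Of 10 thrombospondin receptors 9 were tested, 0 rose, 2 fell and 7 did not pass (median -0.01). ITGB1, the beta chain shared by many matrix-binding integrins, was at 1119 ± 61.8 CPM in knockouts and 1291 ± 6.00 CPM in controls (log2 fold change -0.21 ± 0.06 SE, edgeR adjusted p = 0.0428). It lost the call in each fit that left out 1 library except that without knockout replicate 1, with scaling to library size only and with limma on the deposited log2 CPM. CACNA2D1, a calcium channel subunit that binds thrombospondins, was at 20.9 ± 1.20 CPM in knockouts and 27.6 ± 2.56 CPM in controls (-0.40 ± 0.10 SE, edgeR adjusted p = 0.0292), and lost the call without knockout replicate 2 or 3 or control replicate 2 or 3, and with limma on the deposited log2 CPM. CD47, the signalling receptor of THBS1, was at 109 ± 7.06 CPM in knockouts and 123 ± 7.83 CPM in controls and did not pass (-0.17 ± 0.08 SE, edgeR adjusted p = 0.168). CD36, which mediates much of the effect of THBS1 on vessels, had 0 counts in all knockouts and 4, 4 and 0 in controls.

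Of 13 genes of maturation, inhibition and clearance 12 were tested, 4 rose, 0 fell and 8 did not pass (median 0.13). PCSK6, a furin-type convertase that removes the prodomain of secreted proteins, had 199, 166 and 167 counts in knockout libraries, against 29, 17 and 11 in control libraries. The knockout libraries were nearly alike and far above all controls, at 6.04 ± 0.137 CPM in knockouts and 0.670 ± 0.279 CPM in controls (log2 fold change 3.15 ± 0.26 SE, edgeR adjusted p = 0.000292). FURIN itself, at 201 ± 11.9 CPM in knockouts and 219 ± 7.16 CPM in controls, did not pass (-0.12 ± 0.07 SE, edgeR adjusted p = 0.264) and remained far above PCSK6 in CPM. SDC4, a cell surface proteoglycan known as a partner of ADAMTS5, rose to 265 ± 36.2 CPM in knockouts, against 178 ± 23.2 CPM in controls (0.57 ± 0.12 SE, edgeR adjusted p = 0.0139). POFUT2, which fucosylates type 1 repeats and is needed for the secretion of ADAMTS proteases, rose to 69.3 ± 1.42 CPM in knockouts, against 54.9 ± 3.00 CPM in controls (0.34 ± 0.07 SE, edgeR adjusted p = 0.0150). TIMP2, a metalloprotease inhibitor, rose to 951 ± 24.7 CPM in knockouts, against 755 ± 33.5 CPM in controls (0.33 ± 0.06 SE, edgeR adjusted p = 0.00631). TIMP3, the main inhibitor of ADAMTS proteases within that family, was at 392 ± 63.3 CPM in knockouts and 414 ± 39.3 CPM in controls and did not pass (-0.08 ± 0.12 SE, edgeR adjusted p = 0.707). SDC4 and POFUT2 lost the call without knockout replicate 3 or control replicate 3, and POFUT2 also without control replicate 1. With limma on the deposited log2 CPM SDC4, POFUT2 and TIMP2 all lost it (adjusted p = 0.0899, 0.0572 and 0.0555).

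Of 15 substrates and released ligands 7 were tested, 0 rose, 2 fell and 5 did not pass (median -0.18). AREG, an EGF receptor ligand that ADAMTS1 can release from the cell surface, had 1482, 1204 and 1151 counts in knockout libraries, against 1961, 2058 and 1729 in control libraries. The groups were well apart, at 43.5 ± 2.56 CPM in knockouts and 69.0 ± 3.02 CPM in controls (log2 fold change -0.67 ± 0.08 SE, edgeR adjusted p = 0.00104). HBEGF, a second such ligand, was at 80.5 ± 3.32 CPM in knockouts and 86.2 ± 2.07 CPM in controls and did not pass (-0.10 ± 0.07 SE, edgeR adjusted p = 0.362). FBLN1, a matrix protein that acts as a cofactor of ADAMTS1, was at 4.70 ± 1.17 CPM in knockouts and 7.72 ± 0.0983 CPM in controls (-0.72 ± 0.19 SE, edgeR adjusted p = 0.0346). Its call was lost without knockout replicate 2, without each control replicate in turn and with limma on the deposited log2 CPM. BCAN, a brain proteoglycan substrate below the filter, had 7, 6 and 6 counts in knockouts and 0 in all controls.

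Of the 7 latent TGF-beta genes, all tested, 0 rose, 2 fell and 5 did not pass (median -0.22). TGFB2, one of the 3 ligands, was at 111 ± 16.6 CPM in knockouts and 153 ± 4.86 CPM in controls (log2 fold change -0.46 ± 0.10 SE, edgeR adjusted p = 0.0171). LTBP1, which tethers latent TGF-beta to the matrix, was at 46.2 ± 1.23 CPM in knockouts and 59.9 ± 2.98 CPM in controls (-0.38 ± 0.07 SE, edgeR adjusted p = 0.0107). TGFB1, the form whose latent complex THBS1 is best known to activate, was at 151 ± 8.16 CPM in knockouts and 139 ± 5.62 CPM in controls and did not pass (0.11 ± 0.07 SE, edgeR adjusted p = 0.317). TGFB2 lost the call without knockout replicate 3, without each control replicate in turn and with limma on the deposited log2 CPM, and LTBP1 without knockout replicate 3 or control replicate 2.

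Of 24 other proteins with thrombospondin repeats 10 were tested, 1 rose, 1 fell and 8 did not pass (median 0.04). CFP, the complement regulator properdin, had 142, 133 and 155 counts in knockout libraries, against 52, 63 and 52 in control libraries. It rose in every library, to 4.91 ± 0.563 CPM in knockouts, against 2.01 ± 0.232 CPM in controls (log2 fold change 1.29 ± 0.19 SE, edgeR adjusted p = 0.00318). UNC5B, a netrin receptor, had 38, 27 and 34 counts in knockout libraries, against 108, 100 and 74 in control libraries. It fell to 1.12 ± 0.132 CPM in knockouts, against 3.36 ± 0.376 CPM in controls (-1.58 ± 0.22 SE, edgeR adjusted p = 0.00259). CCN1 and CCN2, abundant matricellular proteins with the same repeat, had log2 fold changes of -0.07 ± 0.06 SE and -0.03 ± 0.10 SE and did not pass (edgeR adjusted p = 0.428 and 0.893). PCSK6, AREG, CFP and UNC5B were called under all alternatives run.

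**Figure D4:**
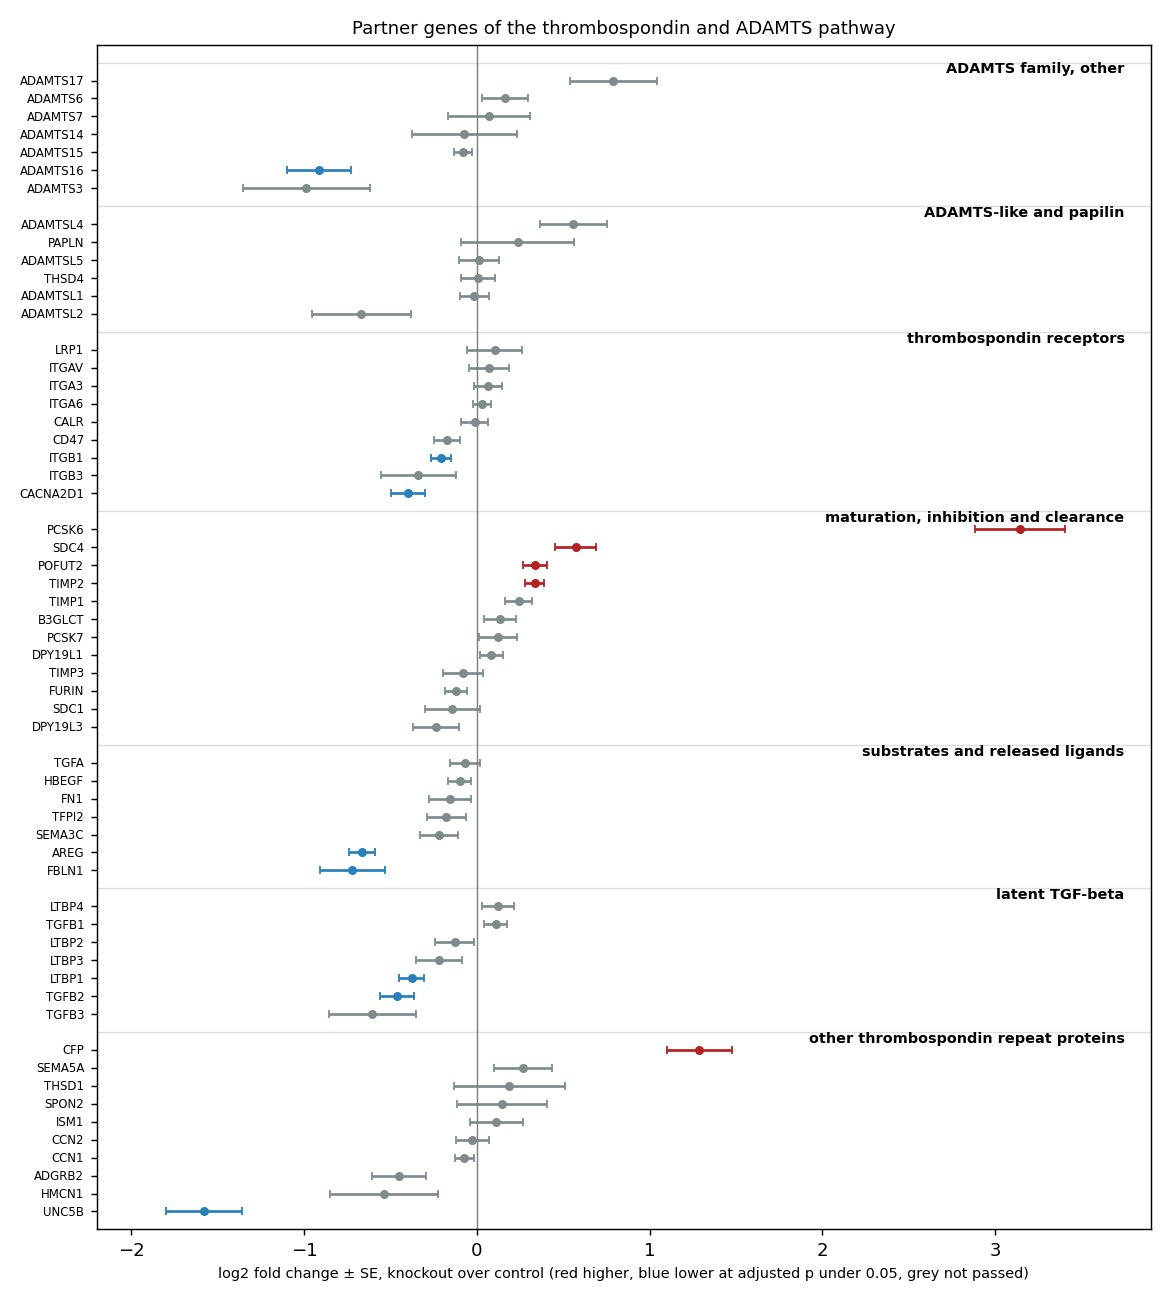
Log2 fold change ± SE (horizontal axis, knockout over control) of the 58 tested partner genes by list, red where higher and blue where lower at an edgeR adjusted p under 0.05, grey where the test was not passed. PCSK6 stands alone on the right at 3.15, and most partner genes lie within 1 log2 unit of 0.

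Genes beside the 8 on their chromosomes were examined because this series holds stretches where many neighbours share a shift. Within 5 Mb of ADAMTS1 and ADAMTS5 lay 14 tested genes, with a median log2 fold change of -0.01 and 0 called in either direction. The nearest tested genes on either side were APP, the amyloid precursor (0.17, edgeR adjusted p = 0.150), and the methyltransferase gene N6AMT1 (0.26, edgeR adjusted p = 0.151). Around THBS1 92 neighbours had a median of 0.04, with PAK6 higher and THBS1-IT1 lower. The 24 neighbours of THBS2 had a median of -0.23 and 3 were lower. The lowest of these was DACT2, a regulator of Wnt signalling 0.929 Mb away (log2 fold change -2.14). PAK6 and DACT2 were chosen after their values were seen.

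ADAMTS12, itself not called, lay among neighbours with a median under 0. The median of the 33 tested genes around it was -0.20, with 8 lower and 0 higher. Among all tested genes 6.22% were called lower and 5.88% higher. TARS1, the nearest tested gene on one side, was lower (-0.44, edgeR adjusted p = 0.00155). AMACR, the nearest on the other side, did not pass (-0.22, edgeR adjusted p = 0.621). With the neighbour median subtracted the log2 fold change of ADAMTS12 was -0.12. The same subtraction left THBS1 at -0.66, THBS2 at -2.04, ADAMTS1 at -2.79, ADAMTS9 at -0.08 and THBS3 at -0.20. Around THBS3 157 neighbours had a median of -0.09, with 3 higher and 18 lower, and around ADAMTS4 75 had a median of -0.17, with 2 higher and 12 lower. Around ADAMTS9 0 of 21 were called (median -0.04).

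**Figure D5:**
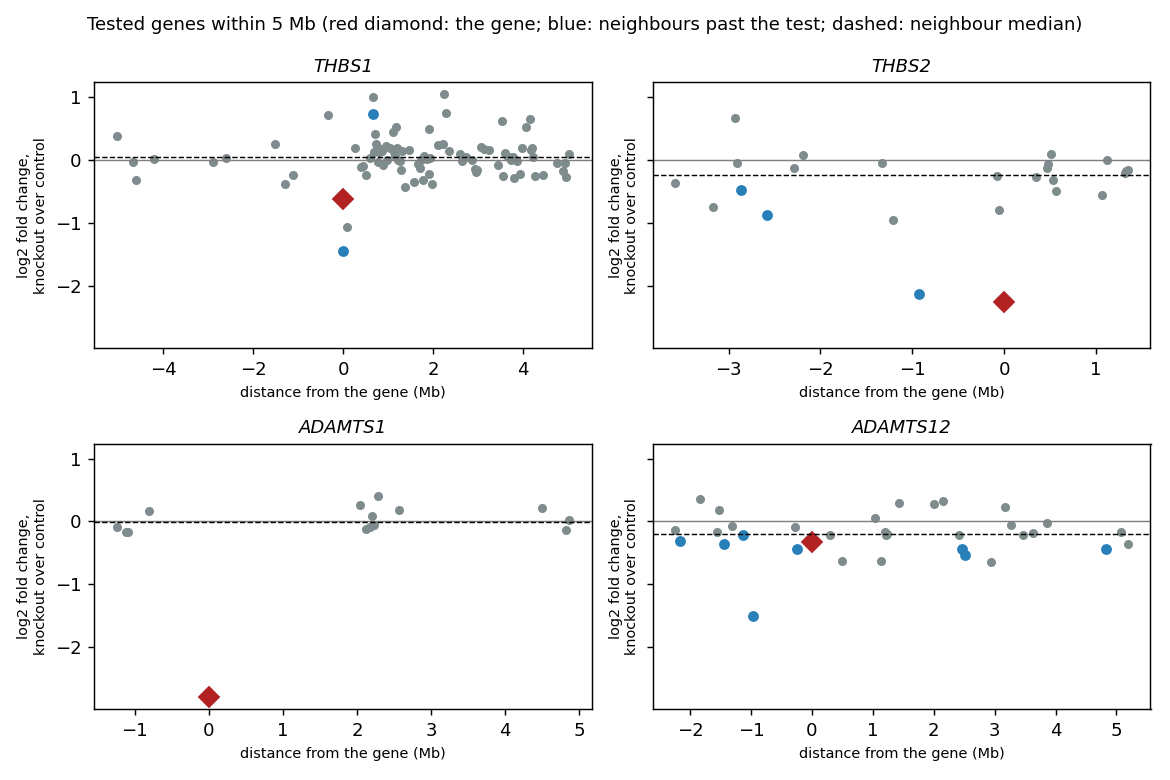
Log2 fold change (vertical axis, knockout over control) of tested genes within 5 Mb of THBS1, THBS2, ADAMTS1 and ADAMTS12 by distance from the gene in Mb, with the gene as a red diamond, called neighbours in blue and the neighbour median dashed. ADAMTS1 lies at -2.80 with all 14 neighbours near 0, while ADAMTS12 lies among neighbours with a median of -0.20.

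The genes most like THBS1 and ADAMTS1 over the 6 libraries were found by the root-mean-square distance in log2 CPM, centred on the control mean. Among 10495 genes of at least 5 CPM, the closest to THBS1 were FZD8, a Wnt receptor, at a distance of 0.0601, MCRIP1, a regulator of the corepressor CtBP, at 0.0635, and WDR3, a nucleolar protein, at 0.0780. They were chosen for this likeness, and their log2 fold changes were -0.63, -0.60 and -0.57. Closest to ADAMTS1 among 10496 genes were FOXA2 at 0.251, a pioneer transcription factor of endoderm, SPDEF at 0.308, a luminal epithelial transcription factor, and GRAMD1B at 0.483, a sterol transporter. FOXA2 averaged 2.61 ± 0.986 CPM in knockouts and 14.2 ± 2.07 CPM in controls. The nearest genes thus lay farther from ADAMTS1 than from THBS1. ADAMTS1, at 0.717 CPM in knockouts and 5.06 CPM in controls, itself averaged under the 5 CPM asked of the genes compared. Genes of its own level were therefore left out, and why the distances differ was not tested.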

How the data were processed

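Strand-specific poly-A libraries were made from extracts that passed an RNA integrity cutoff, per the labels' protocols. The submitters' processing notes list FastQC, STAR version 2 and the build GRCh38; how reads were counted, and on which strand and annotation, was not given in the sources used here. Deposited by the authors were raw counts for 25330 gene symbols, the source of all main values, and a table of log2 CPM values for 15066 genes, used for an alternative only. The filter and prior count behind it were not given in the sources used here. At 0 counts in all libraries were 3188 symbols.

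Members and lists were chosen with earlier results of these data known. Counts were tested with edgeR 4.0.16 in R 4.3.3 (filterByExpr, TMM scaling, quasi-likelihood F test, no covariate, two-sided, Benjamini-Hochberg over 14199 tested genes, called at 0.05). CPM are on the TMM scale, with means ± SD of 3 libraries. SE is the log2 fold change over the square root of F. The script was tested on simulated data. Alternatives were DESeq2 1.42.0, limma 3.58.1 with voom, RLE factors, library size only, no filter, a mean of at least 1 CPM, the replicate number as a block, limma on the deposited values, and leaving out each library. P-values measure the spread between passages. Replicates were compared first: chi-square per degree of freedom ran from 2.45 to 34.2 within groups and from 25.0 to 37.2 between groups. The 34.2 was between knockout replicates 1 and 2. All 6 libraries were kept, which these values do not decide. Lengths, places and coding sequence come from GENCODE 29, which matched 25102 symbols, and may differ from the submitters' annotation. A limit for a count of 0 (3 counts) covers counting error only.

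Named are the 8 genes and the 3 genes most like THBS1 and ADAMTS1. Per list, the called genes with the smallest p are named, up to 6, or the 2 with the smallest p where none was called. Of the list genes below the filter only THBS4, COMP, ADAMTS2, ACAN, VCAN, CD36 and BCAN are named. Of the nearest tested neighbours only APP, N6AMT1, TARS1 and AMACR are named. Both of these choices were made with the values known. Other list genes (ADAMTS15, CD47, FURIN, TIMP3, HBEGF, TGFB1, CCN1 and CCN2) were named for their known role, after their values were seen. ADAMTS10, ADAMTS18, RSPO2, RSPO4, CCN4 and DCN were not analysed here.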

Additional observations from a re-analysis of the deposited data

How the results depend on the processing

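Of the called members and called list genes, 0 changed sign under any alternative run, while ADAMTS9, not called, was at 0.05 without knockout replicate 2. With all libraries edgeR called 835 genes higher and 883 lower. The counts were 1506 and 1593 with the replicate block, 371 and 360 with limma on the deposited log2 CPM, and from 261 to 1629 higher and from 263 to 1801 lower over the fits that left out 1 library, lowest without knockout replicate 3 and highest without knockout replicate 1. Members called lower numbered 3, and 2 to 5 when 1 library was left out (5 without knockout replicate 1, 2 without knockout replicate 3 or control replicate 3), with 4, ADAMTS12 being added, under DESeq2, no filter and the replicate block and 2 with limma on the deposited values. Partner genes called higher numbered 5, against 8 with DESeq2, 9 with no filter, 8 with the replicate block, 2 with limma on the deposited values and 3 to 7 with 1 library left out. Those called lower numbered 8, against 10 with the replicate block, 4 with limma on the deposited values and 3 to 17 with 1 library left out. The fit without knockout replicate 1 gave the 17 lower and 7 higher, of 61 partner genes tested in it. With no filter more genes were tested, and fits without a library had fewer samples; elsewhere the cause was not tested. ADAMTS1 moved by more than 1 SD without knockout replicate 1 and ADAMTS12 with the neighbour median subtracted. Of the named list genes' alternative fits 169 left the call as it was, 36 lost it and 5 gained it. The 5 were ADAMTSL2 without knockout replicate 1, and ADAMTSL4 with DESeq2, with no filter, without knockout replicate 2 and with the replicate block (edgeR adjusted p = 0.0449). Same-numbered libraries share only a number: their deviations correlated at 0.316, 0.139 and 0.0855 for replicates 1, 2 and 3, and knockout replicates 2 and 3 each correlated best with another number's control. Depth limits ADAMTS4, ADAMTS5 and THBS3, whose counts cannot show a difference of moderate size.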
